A study of Mus musculus with 12 samples.

Results

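The genes described are 10 mouse genes whose products are secreted into the extracellular matrix as matricellular or provisional matrix proteins: *Fn1*, *Postn*, *Tnc*, *Tnxb*, *Thbs1*, *Thbs2*, *Thbs4*, *Sparc*, *Vcan* and *Cilp*. They were chosen by name from the class of protein they encode, with earlier results of these data known. The shares over all genes set beside them are therefore a description and not a test of the list. They were found by NCBI Gene ID and make up 10 of the 27179 genes counted. Each of 6 wild-type male C57BL/6N mice, obtained at 6 to 8 weeks of age, was transfected in both tibialis anterior (TA) muscles with 10 μg of plasmid. One leg received empty pcDNA3 (Control muscles) and the other leg plasmid encoding the human lncRNA *FRAIL1* (*FRAIL1* muscles), and TAs were taken 7 days later for poly(A)-selected RNA-seq. All 12 muscles were therefore electroporated, no muscle was left without plasmid, and *FRAIL1* was driven by the CMV promoter, which is not specific to muscle fibers.

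Matricellular proteins are secreted into the matrix but serve less as its load-bearing fibers than as regulators of how cells attach, migrate and respond to growth factors. Fibronectin, versican and tenascin C are the classic components of a provisional matrix, the loose scaffold laid down early after injury and replaced as tissue matures. In skeletal muscle these proteins come mainly from fibroblasts and fibro-adipogenic progenitors, tendon cells, and in part from immune cells, endothelium and muscle fibers themselves.

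Total counts were 45018389 to 59309210 in Control and 44848322 to 60527385 in *FRAIL1* muscles, and all 10 genes were among the 15502 tested, the fewest counts of any of them in a muscle being 247. Genes on the opposite strand overlap 2.5% of the exons of *Fn1*, 2.26% of those of *Tnc* and 3.42% of those of *Thbs1*, and whether counting used strand is not given in the sources used here. *FRAIL1* muscle 5 had the largest scaling factor (1.19, against 0.935 to 0.983 in Control muscles and 0.965 in the lowest *FRAIL1* muscle). The log2 fold changes of the 10 mRNAs are therefore given with and without this muscle. *FRAIL1* itself is a human transcript and was not among the genes counted. Adult fast fiber mRNAs held most of the counts of any marker list, at a summed 173895 to 203129 CPM (counts scaled to a common library size) in Control muscles. RNA came from whole muscle, so fewer cells of a type and less RNA per cell cannot be told apart.

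Of the 10 mRNAs, 5 rose in *FRAIL1* muscles: fibronectin (*Fn1*), periostin (*Postn*), tenascin C (*Tnc*), thrombospondin 4 (*Thbs4*) and cartilage intermediate layer protein (*Cilp*), by between 1.67-fold and 3.03-fold (adjusted p under 0.05 over all 15502 genes by the quasi-likelihood method of edgeR, used throughout and named edgeR). Over all genes tested, 4.43% were called higher and 1.85% lower, and no member was called lower. DESeq2 called 8 of the 10 higher, adding *Thbs2* (adjusted p = 0.00599), *Sparc* (0.0217) and *Vcan* (0.0354), and limma voom called 7. In either direction DESeq2 called 2149 of 15757 genes and limma voom 1836 of 15502. At an unadjusted p under 0.05 in edgeR 9 of the 10 were higher. The median log2 fold change of the 10 was 0.71, against 0.0096 over all genes tested, and 0.60 against 0.0030 without *FRAIL1* muscle 5. All 6 *FRAIL1* muscles lay above all 6 Control muscles for 4 of them (*Fn1*, *Postn*, *Tnc* and *Cilp*), a separation that 3.12% of all genes tested showed in that direction. The summed level of the 10 was 535 to 844 CPM in Control muscles with a median of 677, and 899 to 1956 CPM in *FRAIL1* muscles with a median of 1075. The groups did not overlap in this sum, and the highest *FRAIL1* sum without muscle 5 was 1100 CPM.

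Which 5 of the 10 were called depended on how the mouse entered the fit. With the mouse as a block, 5 were again called higher, but they were *Tnc*, *Thbs2*, *Thbs4*, *Sparc* and *Vcan*, against 7.48% of all genes. Without *FRAIL1* muscle 5, 4 were called higher (*Fn1*, *Postn*, *Tnc* and *Cilp*), against 3.69% of all genes. *Tnc* alone was called in these 3 fits, and also in each of the 12 fits that left out 1 muscle. It was the only call among the 10 without Control muscle 1, Control muscle 3 or *FRAIL1* muscle 1. In these fits the calls over all genes, in either direction, also fell, to 400, 403 and 364, against 974 with all muscles. Without Control muscle 2 or 5 the calls were *Fn1* and *Tnc*, without Control muscle 4 or *FRAIL1* muscle 4 there were 3, and without any other muscle 4 to 7. Over all genes there were 413 and 527, then 500 and 494, and 537 to 2110 without any other muscle. The number of members called thus followed the number of all genes called only loosely. Without Control muscle 5, 527 genes went with 2 members, and without *FRAIL1* muscle 4, 494 went with 3. With the mouse as a block, 2186 genes went with 5. Why calls were lost was not tested.

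**Figure D1:**
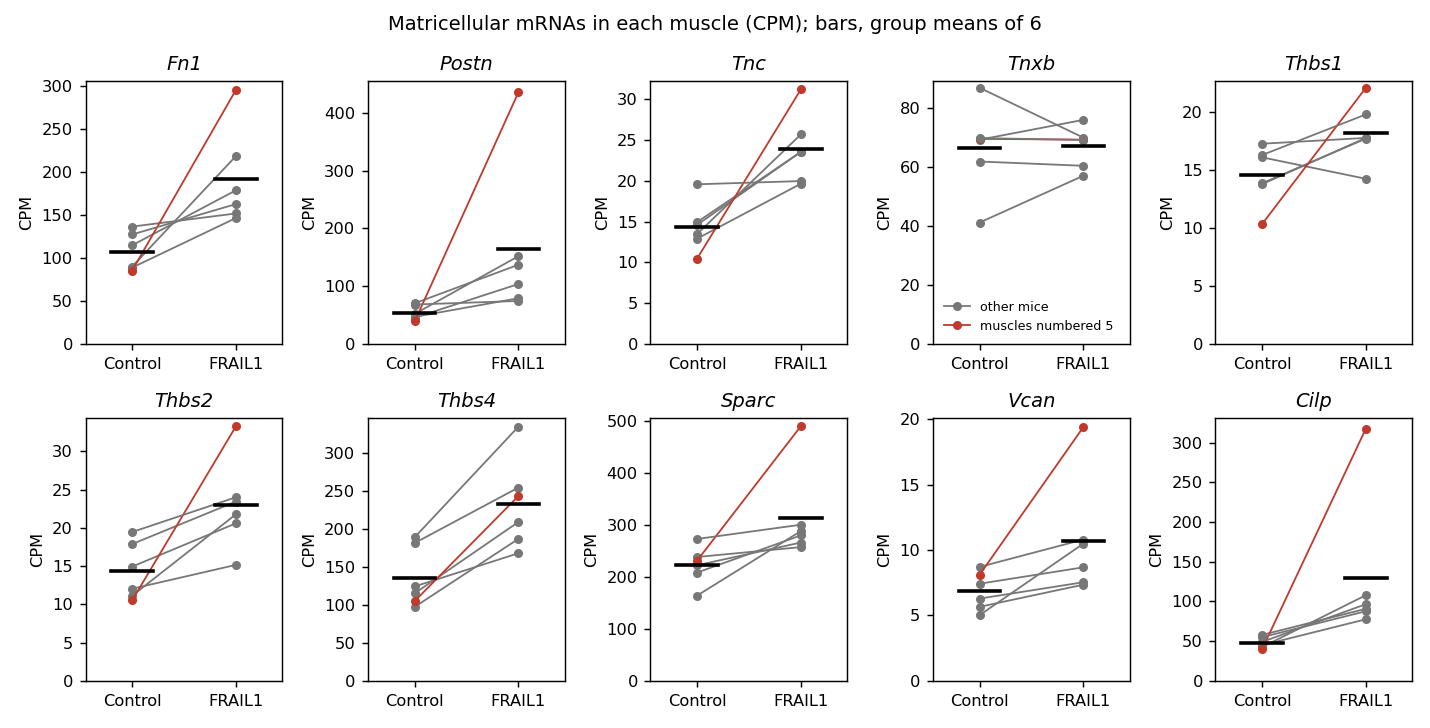
CPM of each of the 10 mRNAs (y axis, from 0) in Control and *FRAIL1* muscles, with lines joining the muscles of 1 mouse, black bars for the means of 6 muscles and red for the muscles numbered 5. *Fn1*, *Postn*, *Tnc* and *Cilp* show no overlap between groups, *Tnxb* means are nearly equal (66.3 and 66.9 CPM), and the red *FRAIL1* point is the highest for 8 of the 10.

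Promoter sequence is shown for 3 of the mRNAs that rose and whose window held a motif searched for, to set their changes beside the DNA upstream of these genes. Each line is the 250 bases upstream of a RefSeq transcript start (GRCm38.p6), written on the strand of the gene. Capitals mark TATAAA, the letters of a TATA box, in *Postn* and *Tnc* and 2 overlapping TEAD motifs (CATTCC) in *Thbs4*.
Postn, chr3:54360857-54361106, plus strand: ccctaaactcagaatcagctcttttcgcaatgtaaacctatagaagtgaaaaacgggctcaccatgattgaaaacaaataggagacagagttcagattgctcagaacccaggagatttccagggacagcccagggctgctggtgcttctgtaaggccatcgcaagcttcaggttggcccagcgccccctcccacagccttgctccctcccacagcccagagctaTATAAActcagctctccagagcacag
Tnc, chr4:64047016-64047265, minus strand: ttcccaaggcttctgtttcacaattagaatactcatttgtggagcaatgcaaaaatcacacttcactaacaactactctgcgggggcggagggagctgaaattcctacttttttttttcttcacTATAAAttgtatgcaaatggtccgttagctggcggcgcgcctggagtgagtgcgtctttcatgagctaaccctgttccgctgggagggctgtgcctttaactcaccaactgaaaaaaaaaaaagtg
Thbs4, chr13:92794819-92795068, minus strand: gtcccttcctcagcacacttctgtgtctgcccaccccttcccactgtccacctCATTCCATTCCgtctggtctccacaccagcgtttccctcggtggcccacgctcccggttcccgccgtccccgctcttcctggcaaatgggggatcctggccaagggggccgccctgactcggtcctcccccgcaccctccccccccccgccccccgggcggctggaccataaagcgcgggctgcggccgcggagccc
The letters TATAAA began at position -26 from the start in *Postn* and at -126 in *Tnc*, or -205 from the other start listed for *Tnc*. The window of the other start listed for *Postn* held none of the motifs searched. The TEAD motifs began at -197 and -192 in *Thbs4*. TATAAA was searched on the gene's strand, and CATTCC, the CRE (TGACGTCA) and the AP-1 site (TGANTCA) on both strands. Only these exact letters counted, at any position in the window, so TATAAA found far from a start is not shown to act as a TATA box. Other spellings, such as TATATAAG in the windows of *Cilp* and of the other *Tnc* start, did not count. Of 32851 windows of the same length, 7.59% held TATAAA, 12.6% the TEAD motif, 1.55% the CRE and 6.75% the AP-1 site. Promoter windows were matched for 8 of the 10 genes. The window of *Cilp* held none of these letters, and that of *Tnxb*, which was not called, held an AP-1 site at -55. A match in these letters is a description and not evidence that a factor binds.

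*Fn1* (Gene ID 14268, chr1:71585520-71653200 of GRCm38, minus strand) encodes fibronectin, the glycoprotein that cells assemble into fibrils through integrin α5β1. It measured 85.5 CPM in the lowest, 102 in the median and 137 in the highest Control muscle, and 146, 171 and 295 CPM in *FRAIL1* muscles. The groups did not overlap, with muscle 5 the highest at 295 CPM. The means were 107 ± 22.02 and 192 ± 56.7 CPM (SD, n = 6 each), a log2 fold change of 0.84 (standard error [SE] 0.182, adjusted p = 0.0221, edgeR). The adjusted p was 0.0530 with the mouse as a block (edgeR), and it was above the threshold without Control muscle 1 (0.0553), Control muscle 3 or *FRAIL1* muscle 1. Without *FRAIL1* muscle 5 the log2 fold change was 0.68 and the call held (adjusted p = 0.0225, edgeR).

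*Vcan* (Gene ID 13003, chr13:89655312-89742509, minus strand) encodes versican, a large proteoglycan that binds hyaluronan. Control muscles held 5.03, 6.86 and 8.71 CPM at the lowest, median and highest, and *FRAIL1* muscles 7.35, 9.58 and 19.4 CPM. The groups overlapped, with 3 of 6 *FRAIL1* muscles above the highest Control muscle. Its log2 fold change of 0.64 (SE 0.230) did not pass the threshold (adjusted p = 0.0993, edgeR), while with the mouse as a block it did (0.58, adjusted p = 0.0294, edgeR), the *FRAIL1* leg being higher in 6 of 6 mice. It was 0.38 without *FRAIL1* muscle 5 (adjusted p = 0.143, edgeR).

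The tenascins are large modular glycoproteins of which tenascin C is scarce in resting adult muscle and tenascin X is a lasting component of connective tissue. *Tnc* (Gene ID 21923, chr4:63959785-64047015, minus strand) measured 10.5, 14.05 and 19.6 CPM at the lowest, median and highest in Control and 19.6, 23.5 and 31.2 CPM in *FRAIL1* muscles. The groups met without overlapping, the highest Control muscle being at 19.57 and the lowest *FRAIL1* muscle at 19.63 CPM. Its means of 14.3 ± 3.01 and 23.9 ± 4.24 CPM (SD, n = 6 each) gave a log2 fold change of 0.74 (SE 0.140, adjusted p = 0.0124, edgeR). The adjusted p was 0.0278 with the mouse as a block and lay between 0.00686 and 0.0337 when single muscles were left out (edgeR). Without *FRAIL1* muscle 5 the log2 fold change of *Tnc* was 0.65 (adjusted p = 0.0113, edgeR).

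*Tnxb* (Gene ID 81877, chr17:34670535-34719815, plus strand), encoding tenascin X, was the one member with almost no difference in means. It measured 41.1, 69.3 and 86.7 CPM at the lowest, median and highest in Control and 57.0, 69.1 and 75.8 CPM in *FRAIL1* muscles, whose range lay inside that of the Control muscles. The log2 fold change was 0.01, with a 95% interval from -0.28 to 0.30 (adjusted p = 0.966, edgeR), and 2 of 6 mice had more in the *FRAIL1* muscle. Without *FRAIL1* muscle 5 the log2 fold change of *Tnxb* was 0.0008 (adjusted p = 0.998, edgeR).

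The difference between these tenascins was examined as the log2 ratio of *Tnc* to *Tnxb* within each muscle, 1 of 4 ratios between members of a family, chosen after the values had been seen. The ratio was -2.20 ± 0.441 in Control and -1.49 ± 0.334 in *FRAIL1* muscles (SD, n = 6 each), a difference of 0.71 (p = 0.0152, adjusted p = 0.0606 over the 4 ratios, two-sided exact permutation test over 924 arrangements). It rose in 6 of 6 mice, from 0.04 to 1.58, and a two-sided exact sign-flip test over mice gave p = 0.03125, the smallest it can give (adjusted p = 0.0417). The comparison over muscles thus did not pass the threshold after adjustment, and that over mice did. The latter passed only because the *Thbs4* to *Thbs1* and *Thbs2* to *Thbs1* ratios tied with it at the smallest p. As the ratios were chosen after their values were seen, these p-values describe them and are not evidence of a difference.

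Thrombospondins 1 and 2 are trimeric proteins that bind CD36 and CD47 and limit blood vessel growth, and thrombospondin 1 can activate latent TGF-β. Thrombospondin 4 belongs to the pentameric branch of the family and is known from tendon, the myotendinous junction and muscle. *Thbs4* (Gene ID 21828, chr13:92751590-92794818, minus strand) measured 97.3, 120 and 189 CPM at the lowest, median and highest in Control and 168, 226 and 334 CPM in *FRAIL1* muscles. The groups overlapped because Control muscles 4 and 6 were high (181 and 189 CPM), and the *FRAIL1* muscles of the same mice were high too (254 and 334 CPM). The means were 135 ± 39.7 and 232 ± 59.6 CPM (SD, n = 6 each), a log2 fold change of 0.78 (SE 0.203, adjusted p = 0.0431, edgeR). With the mouse as a block it was 0.79 with a smaller SE, 0.0951 (adjusted p = 0.00221, edgeR), and within mice the log2 difference lay between 0.43 and 1.21. The log2 fold change was nearly the same without *FRAIL1* muscle 5, 0.77, but the call was lost (adjusted p = 0.0892, edgeR), and 4 of the 12 fits with 1 muscle left out called it.

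*Thbs2* (Gene ID 21826, chr17:14665500-14694235, minus strand) measured 10.5, 13.5 and 19.5 CPM at the lowest, median and highest in Control and 15.2, 22.6 and 33.3 CPM in *FRAIL1* muscles. Of the *FRAIL1* muscles 5 lay above every Control muscle. Its log2 fold change of 0.68 (SE 0.191) missed the threshold narrowly (adjusted p = 0.0515, edgeR) and passed it with the mouse as a block (adjusted p = 0.0468, edgeR), while without *FRAIL1* muscle 5 it was 0.55 (adjusted p = 0.0968, edgeR).

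*Thbs1* (Gene ID 21825, chr2:118111876-118127133, plus strand) held 10.4, 15.0 and 17.3 CPM at the lowest, median and highest in Control and 14.3, 17.8 and 22.1 CPM in *FRAIL1* muscles. Although 5 of 6 *FRAIL1* muscles were above the highest Control muscle, the log2 fold change of 0.32 (95% interval 0.06 to 0.57) did not pass (adjusted p = 0.107, edgeR), nor did it with the block (adjusted p = 0.145, edgeR). It passed in 1 of 12 fits, without *FRAIL1* muscle 3 (adjusted p = 0.0415, edgeR). Without *FRAIL1* muscle 5 the log2 fold change of *Thbs1* was 0.25 (adjusted p = 0.225, edgeR).

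Between thrombospondins, the log2 ratio of *Thbs4* to *Thbs1* was 0.47 higher in *FRAIL1* than in Control muscles and that of *Thbs2* to *Thbs1* was 0.36 higher, each rising in 6 of 6 mice. Over muscles neither passed (adjusted p = 0.0895 for both, two-sided exact permutation test over 4 ratios), and over mice both reached the smallest p possible (adjusted p = 0.0417, exact sign-flip test). These ratios too were chosen after their values were seen, so their p-values are only a description. The ratio of *Thbs4* to *Thbs2* rose in 3 of 6 mice and differed by 0.11 between groups (p = 0.528, two-sided exact permutation test), within mice from -0.45 to 0.53.

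*Postn* (Gene ID 50706, chr3:54361109-54391037, plus strand) encodes periostin, a fasciclin-domain protein that promotes collagen assembly and is abundant in healing and fibrotic tissue. It measured 39.2, 49.8 and 70.7 CPM at the lowest, median and highest in Control and 74.7, 121 and 435 CPM in *FRAIL1* muscles. No *FRAIL1* value fell within the Control range, and muscle 5, at 435 CPM, was far above the next, at 152 CPM. Its log2 fold change was the largest of the 10, 1.60 (SE 0.418, adjusted p = 0.0469, edgeR). Without *FRAIL1* muscle 5 it was 1.02 (SE 0.229), a 2.02-fold rise in place of 3.03-fold, and the call held (adjusted p = 0.0308, edgeR). With the mouse as a block it was 1.29 and did not pass (adjusted p = 0.109, edgeR), and of the 12 fits with 1 muscle left out 4 called it.

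*Cilp* (Gene ID 214425, chr9:65265180-65280605, plus strand) encodes a matrix glycoprotein first known from cartilage that can bind and restrain TGF-β. Control muscles measured 40.0, 47.0 and 57.9 CPM at the lowest, median and highest, and *FRAIL1* muscles 77.6, 93.7 and 317 CPM. The groups were separate, with muscle 5 at 317 and the next at 108 CPM. The log2 fold change was 1.43 (SE 0.334, adjusted p = 0.0327, edgeR). Without *FRAIL1* muscle 5 the size of the rise fell to a log2 fold change of 0.93, or from 2.69-fold to 1.90-fold, while its SE fell to 0.102 and its adjusted p to 1.95e-04 (edgeR). The 5 remaining *FRAIL1* muscles then measured 92.1 ± 11.2 CPM against 48.3 ± 7.08 CPM in the 6 Control muscles (SD). With the mouse as a block the call was lost (1.21, adjusted p = 0.0708, edgeR).

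*Sparc* (Gene ID 20692, chr11:55394500-55423183, minus strand) encodes osteonectin, a collagen-binding protein that acts in the deposition of collagen fibrils. It measured 164, 227 and 273 CPM at the lowest, median and highest in Control and 258, 284 and 490 CPM in *FRAIL1* muscles. Of the *FRAIL1* muscles 4 lay above every Control muscle, and muscle 5, at 490 CPM, was far above the next at 301 CPM. The log2 fold change of 0.49 (SE 0.158) did not pass (adjusted p = 0.0718, edgeR) nor in any of the 12 fits with 1 muscle left out, but passed with the mouse as a block (0.47, adjusted p = 0.0410, edgeR). Leaving out *FRAIL1* muscle 5 gave 0.32 (adjusted p = 0.0694, edgeR).

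**Figure D2:**
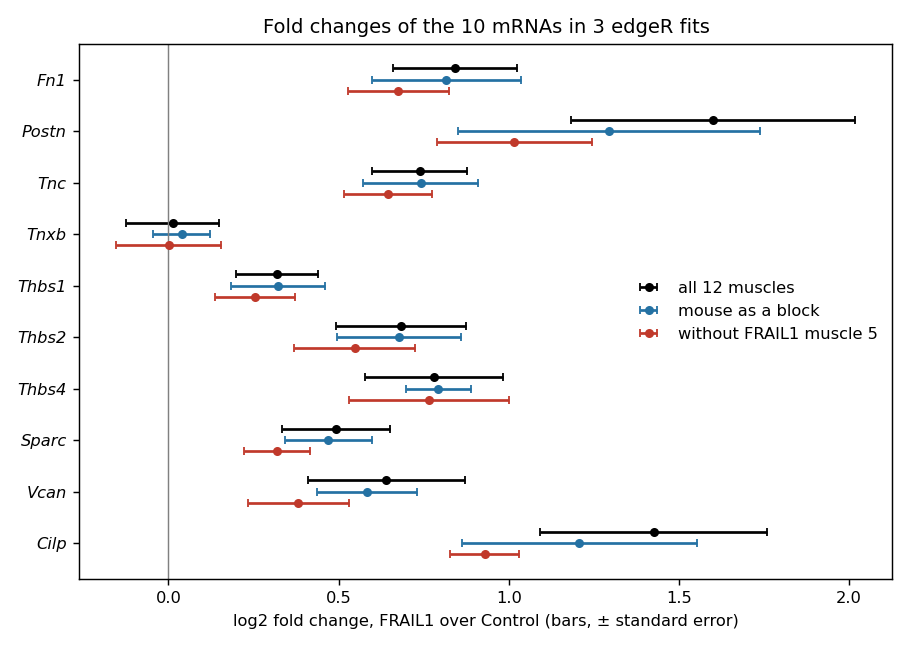
Log2 fold change of *FRAIL1* over Control muscles (x axis) with its standard error for each of the 10 mRNAs, fitted by edgeR over all 12 muscles (black), with the mouse as a block (blue) and without *FRAIL1* muscle 5 (red). *Postn* and *Cilp* move most between fits (1.60 to 1.02 and 1.43 to 0.93 without muscle 5), while *Thbs4* stays between 0.77 and 0.79 and *Tnxb* near 0.

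Across the 6 mice the rise of the group was uneven. The median log2 difference of the 10 mRNAs between the muscles of 1 mouse was 1.41 in mouse 5, 0.95 in mouse 1, and between 0.29 and 0.51 in the other 4 mice. Mouse 5 had the largest difference for 9 of the 10, all except *Tnxb*, and more than 2-fold rises for 9, against 4 in mouse 1 and 1 in mouse 2. The shares of all genes that did so in each mouse are not given here, so these counts may not be particular to the 10. In mouse 5 *Postn* differed by 3.47 and *Cilp* by 2.99 on the log2 scale. Mouse 6 had the smallest differences of *Postn* (0.12) and *Tnc* (0.03), although *Thbs4* differed by 0.82 and *Cilp* by 0.67 in it. *Fn1*, *Postn*, *Tnc*, *Thbs2*, *Thbs4*, *Sparc*, *Vcan* and *Cilp* each had more mRNA in the *FRAIL1* leg in 6 of 6 mice, which 11.5% of all genes tested did, *Thbs1* in 5 and *Tnxb* in 2.

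**Figure D3:**
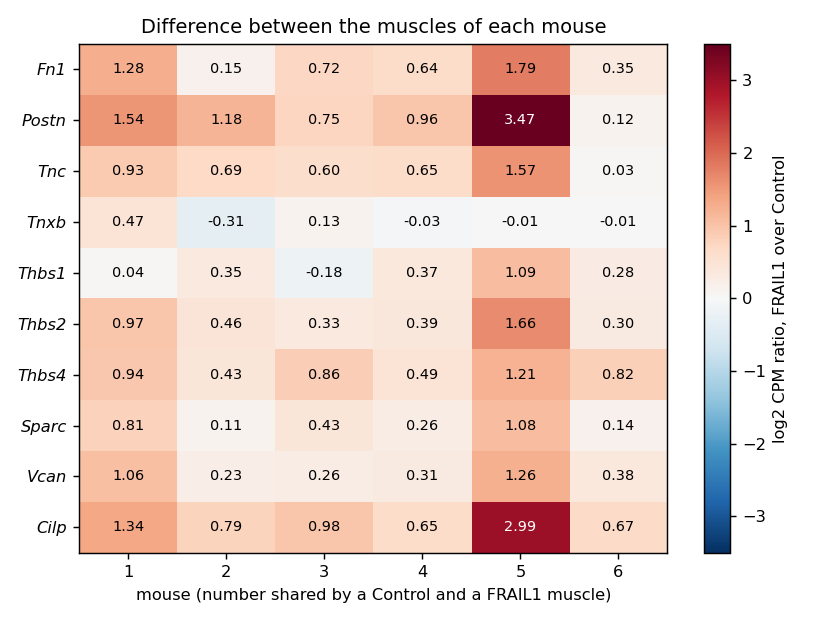
Log2 ratio of CPM between the *FRAIL1* and the Control muscle of each mouse (columns, 1 to 6) for each of the 10 mRNAs (rows), colored from blue (lower) to red (higher). The column of mouse 5 is the darkest, up to 3.47 for *Postn*, and the row of *Tnxb* stays between -0.31 and 0.47.

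To compare genes with each other, CPM were divided by the length of all annotated exons of the gene in kb. In Control muscles *Sparc* (58.9 CPM per kb) and *Thbs4* (41.1) led, followed by *Cilp* (11.4), *Fn1* (9.18), *Postn* (6.20) and *Tnxb* (5.43), then *Thbs1* (2.41), *Thbs2* (2.05) and *Tnc* (1.84), with *Vcan* (0.475 CPM per kb) last. Neighbors in this order overlapped in their 6 Control values, except that *Thbs4* lay above *Cilp*, *Tnxb* above *Thbs1* and *Tnc* above *Vcan* in every muscle. In *FRAIL1* muscles the order was *Sparc* (82.9), *Thbs4* (70.7), *Cilp* (30.5), *Postn* (18.8), *Fn1* (16.4), *Tnxb* (5.48), *Thbs2* (3.29), *Tnc* (3.08), *Thbs1* (3.01) and *Vcan* (0.740 CPM per kb). Neighbors overlapped there too, except that *Fn1* lay above *Tnxb* and *Thbs1* above *Vcan* in every muscle. These *FRAIL1* values include muscle 5, without which mean CPM fell from 164 to 109 for *Postn* and from 130 to 92.1 for *Cilp*. For *Fn1* the mean fell from 192 to 172 CPM. The order without muscle 5 is not given, so the places and overlaps of *Postn* and *Cilp* may rest on this 1 library. With the longest annotated transcript as the length, *Fn1* (12.9 CPM per kb) stood above *Cilp* (11.6) in Control muscles and *Sparc* (97.1) no longer overlapped *Thbs4* (42.3).

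**Figure D4:**
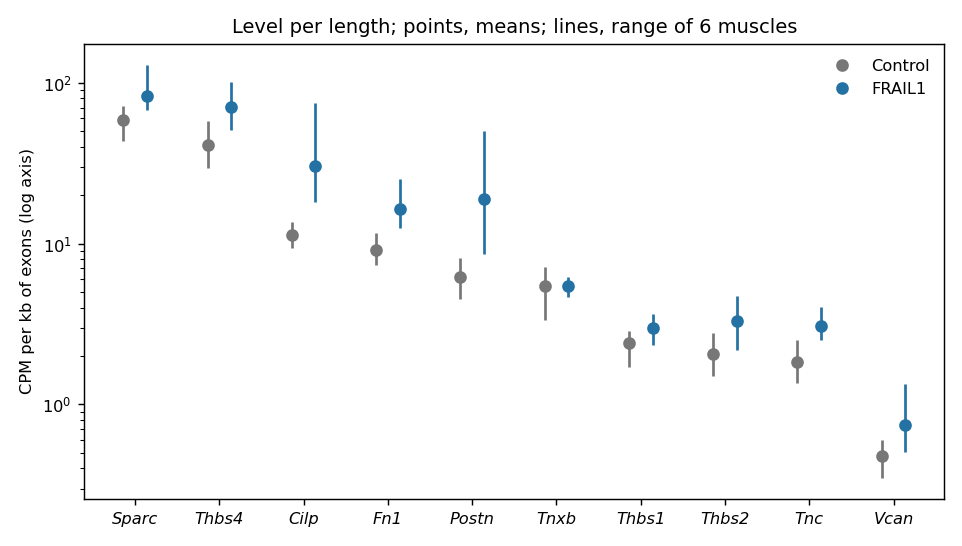
CPM per kb of annotated exons (y axis, log scale) of the 10 mRNAs in Control (gray) and *FRAIL1* (blue) muscles, as the mean (points) and the range of 6 muscles (lines), ordered by Control level. *Sparc* and *Thbs4* stand highest and *Vcan* lowest in both groups.

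Genes related to the 10 were counted in the same fit, in which 4.43% of all genes were called higher and 1.85% lower. With the mouse as a block 7.48% were called higher, and without *FRAIL1* muscle 5 3.69%. In either direction DESeq2 called 2149 of 15757 genes and limma voom 1836 of 15502. The counts of this and the later lists are to be read beside these shares. The share of all genes at an unadjusted p under 0.05 is not given. Of 32 other secreted relatives of these proteins 31 were tested, and 1 rose, *Fbln7*, a fibulin (9.24 to 16.4 CPM, log2 fold change 0.83, adjusted p = 0.0318, edgeR). None was called lower by that test (1 had an unadjusted p under 0.05, DESeq2 and limma voom called none lower, and the fit with the mouse as a block called *Vtn*, encoding vitronectin, at an adjusted p of 0.0159), and the median log2 fold change of the list was 0.12, against 0.71 for the 10 mRNAs. DESeq2 called 6 of these relatives higher, limma voom 3, and edgeR without *FRAIL1* muscle 5 also 3. The list reached down to 0.143 CPM in Control muscles (*Ccn6*), while the lowest of the 10 mRNAs, *Vcan*, was at 6.87 CPM. The 2 medians therefore compare genes of unlike levels. Of the relatives 20 had a higher and 11 a lower fitted value. For 3 relatives all *FRAIL1* muscles lay above all Control muscles, against 3.12% of all genes, and for 0 below. These were *Fbln7*, *Thbs3* (0.69, adjusted p = 0.0504, edgeR) and *Fstl1* (0.53, adjusted p = 0.0986, edgeR), named after their values were seen. Of 19 tested genes for the receptors of these proteins 6 rose and 1 fell, with a median of 0.26. With the mouse as a block 7 were called higher and 3 lower, the further 2 lower being *Cd36*, a thrombospondin receptor (236.6 to 200.3 CPM, -0.24, adjusted p = 0.0267, edgeR), and *Itga4*, an α chain of another fibronectin receptor (17.0 to 14.3 CPM, -0.25, adjusted p = 0.0323, edgeR), named after their values were seen. Integrin β1 (*Itgb1*), the common partner of most matrix-binding integrins, rose from 271 to 325 CPM (log2 fold change 0.26, adjusted p = 0.0397), and *Lrp1*, an endocytic receptor that clears thrombospondins, from 110 to 146 CPM (0.40, adjusted p = 0.0348, and 0.0544 without *FRAIL1* muscle 5). Among the integrin α chains, *Itga5* of the fibronectin receptor rose from 24.7 to 34.9 CPM (0.50, adjusted p = 0.0469) and *Itgav*, the αv chain, from 22.7 to 29.4 CPM (0.37, adjusted p = 0.0282), as did the heparan sulfate proteoglycan *Sdc2* from 17.8 to 27.8 CPM (0.64, adjusted p = 0.0351, all by edgeR). *Itgb6*, the β chain of an epithelial integrin that activates TGF-β, fell from 36.6 to 31.6 CPM (-0.21, adjusted p = 0.0220, edgeR).

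Genes of matrix turnover, 18 of 18 tested, had a median log2 fold change of 0.29, with 2 that rose and 1 that fell (3 and 2 with the mouse as a block). *Adamts20*, a protease of the family that cleaves versican, rose from 6.61 to 11.4 CPM (0.79, adjusted p = 0.0472, edgeR), and *Cemip*, which takes part in hyaluronan breakdown, from 0.318 to 0.937 CPM (1.55, adjusted p = 0.0196, edgeR). *Adamts1*, another versican-cleaving protease, fell from 46.0 to 34.7 CPM (-0.41, adjusted p = 0.0221, edgeR).

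Markers of cells that can make these proteins moved to different degrees. None of 8 markers of fibro-adipogenic progenitors was called (4 had a higher and 4 a lower fitted value, median log2 fold change -0.05, edgeR), and their sum was 268 to 387 CPM in Control and 311 to 449 CPM in *FRAIL1* muscles, higher in 3 of 6 mice. Of the 8, 3 were higher and 1 lower at an unadjusted p under 0.05, DESeq2 called 2 higher and 1 lower, and limma voom, as edgeR without *FRAIL1* muscle 5, called 1 higher. Within mice *Fn1*, *Thbs2*, *Thbs4*, *Vcan* and *Cilp* rose by more than this sum in 6 of 6 mice, *Postn*, *Tnc* and *Sparc* in 5, *Thbs1* in 4 and *Tnxb* in 3. *Dcn* (184 CPM, log2 fold change 0.02) and *Ly6a* (83.3 CPM in Control muscles, -0.18) held most of the sum, so the comparison is mainly with them. Of the other markers, *Pdgfra* (0.44), *Lum* (0.75) and *Mfap5* (0.72) had higher fitted values, and *Pi16* (-0.14), *Hsd11b1* (-0.42) and *Dpp4* (-0.11) lower ones. Of 8 tenocyte and myotendinous junction markers 1 rose, *Scx*, the tendon transcription factor (7.70 to 11.6 CPM, 0.59, adjusted p = 0.0102, edgeR), and their median was 0.34. Their sum was 66.5 to 158 CPM in Control and 82.2 to 193 CPM in *FRAIL1* muscles, with muscle 5 at 89.5 CPM.

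Of 10 macrophage markers 9 had a higher mean in *FRAIL1* muscles (median log2 fold change 0.58) but none was called (edgeR, with 6 at an unadjusted p under 0.05, 5 by DESeq2 and 3 by limma voom), against 5 with the mouse as a block, and their sum, 239 to 379 CPM in Control and 294 to 755 CPM in *FRAIL1* muscles, was higher in 6 of 6 mice. All 5 mRNAs that mark regenerating fibers rose (median log2 fold change 1.84, the most abundant being the embryonic and perinatal myosins *Myh3* and *Myh8* and the transcription factor *Myog*), from a sum of 140 to 187 CPM in Control to 293 to 1514 CPM in *FRAIL1* muscles, with muscle 5 at 1514 and the next at 624 CPM. Of 5 markers of dividing cells 1 rose, *Cdk1*, against 4 with the mouse as a block and 3 by DESeq2, and their sum was 19.1 to 25.5 CPM in Control and 24.1 to 52.5 CPM in *FRAIL1* muscles. The part of these cell types in the rise of the 10 mRNAs was not tested.

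Of 6 endothelial markers 2 fell, 3 with the mouse as a block (*Vwf*, -0.25, adjusted p = 0.0481, or 0.0518 without *FRAIL1* muscle 5, and *Tek*, -0.41, adjusted p = 0.0186, edgeR), with a sum of 384 to 439 CPM in Control and 303 to 383 CPM in *FRAIL1* muscles. Of 8 adult fast fiber mRNAs 1 fell, *Ckm*, the muscle creatine kinase (-0.38, adjusted p = 0.0482, edgeR). With the mouse as a block, or without *FRAIL1* muscle 5, 2 were called lower, the other being *Myh4*, the fast myosin heavy chain IIB (-0.43, adjusted p = 0.0548 in the fit of all muscles and 0.0328 with the block, edgeR), and DESeq2 and limma voom each called 4 lower. Their sum was lower in the *FRAIL1* leg in 6 of 6 mice, at 132562 to 186399 CPM. No gene was called among 5 tested lymphocyte, 7 smooth muscle and pericyte, 6 Schwann cell and 5 satellite cell markers, with median log2 fold changes of -0.23, -0.06, -0.22 and 0.31 (edgeR). At an unadjusted p under 0.05 there were 0 of the lymphocyte, 2 of the smooth muscle and pericyte, 2 of the Schwann cell and 2 of the satellite cell markers, DESeq2 called 0, 0, 2 and 2 of them, and limma voom called none. In edgeR with the mouse as a block, *Cd4*, *Ngfr*, *Pax7* and *Myf5* were called higher and *Rgs5* lower, named after their values were seen. Lymphocyte markers summed to 3.84 to 8.23 CPM in Control and 4.198 to 9.82 CPM in *FRAIL1* muscles.

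**Figure D5:**
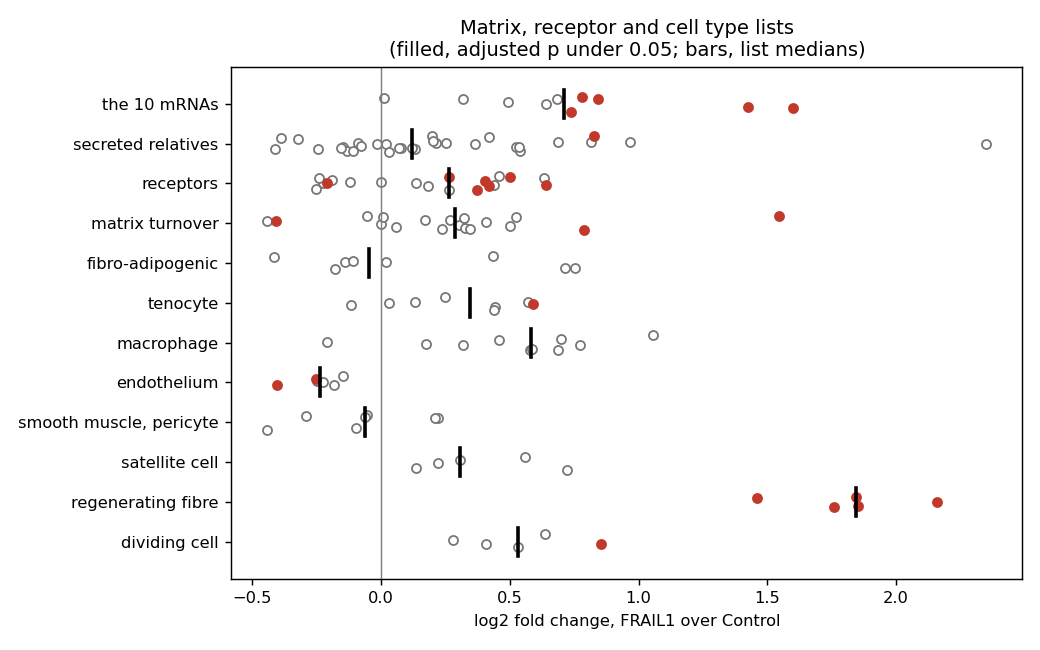
Log2 fold change of *FRAIL1* over Control muscles (x axis) for each tested gene of the 10 mRNAs and of lists of related and marker genes (rows), filled where the adjusted p was under 0.05 in edgeR's test, with bars for list medians. The medians were 0.71 for the 10 mRNAs, 0.12 for secreted relatives, -0.05 for fibro-adipogenic, 0.58 for macrophage and 1.84 for regenerating fiber markers.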

How the data were processed

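Poly(A)-selected RNA from 12 TA muscles was sequenced as paired-end reads. The authors trimmed reads, mapped them to mm10 and deposited raw counts per gene, whole numbers of uniquely mapped reads without normalization. The submitters' processing notes name Trimmomatic, STAR 2.7.8a and featureCounts 2.0.1. The annotation release and the strand setting are not given in the sources used here.

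Of 27179 genes listed by Gene ID, 25275 matched a symbol, and the others held 0.28% of the counts. Genes were filtered with filterByExpr, scaled by TMM and tested in edgeR 4.0.16 (R 4.3.3) by its quasi-likelihood F-test with robust fitting, with group as the only term and Benjamini-Hochberg adjustment over 15502 genes, at a threshold of 0.05. Standard errors were computed as the size of the log2 fold change divided by the square root of F. CPM, the counts scaled to a common library size, use TMM-scaled totals. Alternatives used limma 3.58.1 and DESeq2 1.42.0. Exon lengths came from GENCODE annotation of GRCm38 and promoter windows from RefSeq.

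The labels number the muscles 1 to 6 in each group, and the design text pairs the legs of each mouse, so equal numbers were read as 1 mouse. The deviations of equally numbered muscles from their group means correlated at 0.254, 0.162, 0.282, 0.263, 0.0547 and 0.185 over 15502 genes, with a mean of 0.200, against -0.0400 for different numbers. No library was a copy of another (chi-square per degree of freedom at least 15.4 within groups).

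The 10 genes and all lists were chosen with earlier results of these data known. All 10 were named. Of the lists of relatives, receptors and turnover genes, those past the threshold were named, at most the 5 most abundant in each direction, and of cell type lists at most 3. BLAST matches of 98% identity over 100 bases to other genes were found for *Fn1*, *Tnc* and *Thbs1*, each to the gene on the opposite strand.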

Additional observations from a re-analysis of the deposited data

Results flagged for a closer look

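In 4 of 20 sets of 6 values (the 10 mRNAs in each group), 1 muscle lay further from the other 5 than Dixon's 95% critical value allows. The sets come from the same 12 muscles and are not independent, so their count cannot be set against chance. All 4 far values were those of *FRAIL1* muscle 5, and thus describe 1 library. It measured 435 CPM for *Postn* with the next muscle at 152, 490 CPM for *Sparc* with the next at 301, 19.4 CPM for *Vcan* with the next at 10.8, and 317 CPM for *Cilp* with the next at 108. The gap made up between 0.714 of the range, for *Vcan*, and 0.874 of it, for *Cilp*. The same library had the highest sum of regenerating fiber markers, 1514 CPM, and the lowest sum of adult fast fiber markers, 132562 CPM. Their part in these 4 values was not tested.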

How the results depend on the processing

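The median log2 fold change of the 10 mRNAs lay between 0.52 and 0.82 when single muscles or both muscles numbered 5 were left out, and moved by less than 0.1 under the other settings. The number called higher was 2 without a filter on low counts and 6 with at least 10 counts in every muscle. It was 7 by limma voom, 8 by DESeq2 with and without the block, and between 1 and 7 when muscles were left out. Over all genes the number called in either direction was 974 of 15502, against 758 of 21534 without a filter. With at least 10 counts in every muscle it was 1001 of 14286. It was 2186 with the mouse as a block, 2149 of 15757 by DESeq2, 2808 of 15358 by DESeq2 with the block and 1836 by limma voom. When single muscles were left out it was between 364 and 2110 (2305 without both muscles numbered 5 and with the block). Among single mRNAs, the sign of *Tnxb* turned, to -0.022 by limma voom, -0.094 and -0.0081 without Control muscles 1 and 4, and -0.0035, -0.028 and -1.60e-05 without *FRAIL1* muscles 2, 3 and 6, its highest value being 0.10 without Control muscle 2. Among the values of single mRNAs under alternatives, 170 kept their direction and side of the threshold, 18 came to pass it, 36 no longer passed and 6 turned. The cause was not tested.

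The paired sign-flip test of the 4 ratios and the lengths by longest transcript were chosen after seeing the data, as was leaving *FRAIL1* muscle 5 out of the ratios, which gave adjusted p = 0.130 for *Tnc* to *Tnxb* (exact permutation test). There were 6 muscles a group, and *Vcan* had the fewest counts. The parts of depth and of the spread between muscles in these comparisons were not tested.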
